A study of Homo sapiens with 6 samples.

Results

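The central carbon metabolism genes examined here are 47 genes chosen by symbol, out of 26255 genes listed for each sample. They comprise 18 genes of glycolysis with glucose uptake and lactate formation, 6 genes of the pentose phosphate pathway, and 23 genes of pyruvate entry and the tricarboxylic acid (TCA) cycle, called the TCA arm below, which also holds the cytosolic counterparts ACO1, IDH1 and MDH1. All 47 were found in every sample, and all 47 passed the filter on low values. The list was chosen with earlier results of these data known, but its rule used no measured value. RNA-seq compared 22RV1 cells, a human castration-resistant prostate cancer (CRPC) line, treated for 24 h with the vehicle DMSO (3 samples) or with 10 nM bruceantin (BCT), a plant quassinoid (3 samples), all in RPMI medium with 10% fetal bovine serum. Other doses and times were not analysed here. All samples come from 1 cell line, and nothing states that the replicates were separate cultures, so the p-values measure the spread between these samples, which may be technical.

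Glycolysis breaks glucose down to pyruvate in the cytosol, with phosphorylation by hexokinase and phosphofructokinase as regulated early steps, and lactate dehydrogenase turns pyruvate into lactate. The pentose phosphate pathway branches off at glucose phosphate and supplies NADPH and ribose for nucleotides. Pyruvate dehydrogenase carries pyruvate into the mitochondrial TCA cycle, which oxidizes acetyl groups and feeds electrons to the respiratory chain. Normal prostate epithelium is known for secreting citrate instead of oxidizing it, and prostate cancer cells for oxidizing it again.

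Expression was deposited as FPKM, a read abundance scaled to transcript length and to the mapped reads of the sample, which allows levels of different genes to be compared but holds no read counts. The 3 DMSO samples had FPKM sums of 1169649 to 1572321 and the 3 BCT samples sums of 757534 to 799838, and the small RNA gene MIR6087 made up 43.5% to 55.3% of the sum with DMSO and 31.7% to 32.5% with BCT. Values were used as deposited, and scalings to equal sums are set beside the results they change. Relative to DMSO replicate 1, the depth read from the lowest values was 0.877 to 1 with DMSO and 1.05 to 1.13 with BCT. Of the luminal prostate markers, HOXB13, FOXA1, KRT8, KRT18, EPCAM and CDH1 stood at 59.2 FPKM or more in every sample. The markers of leukocytes, endothelium and basal cells PTPRC, PECAM1, KRT5 and KRT14, and the collagen gene COL1A2, stood at 0.157 FPKM or less in every sample. Of the 9 markers of other cell types, COL1A1 stood at 1.23 to 1.55 FPKM with DMSO and 5.04 to 6.31 with BCT, ACTA2 at 3.45 to 4.46 and 13.0 to 14.7, CHGA at 0.549 to 0.855 and 0.685 to 1.25, and SYP at 45.5 to 51.2 and 37.7 to 40.8, and their part in the results was not tested.

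BCT-treated cells had lower transcript levels of many genes of central carbon metabolism, and most of all of glycolysis. A gene was called when its log2 fold change exceeded 0.85 in size with a false discovery rate (FDR) below 0.05, by limma on log2(FPKM + 0.1) over all 12729 genes tested with Benjamini-Hochberg adjustment. Of the 47 genes, 22 were called lower and 0 called higher, against 17.8% of all genes tested called lower, 13.9% called higher and 31.6% called in either direction. The FDR alone was passed by 39 genes toward lower levels and 4 toward higher levels, while 4 did not pass it, against 42.8% of all genes tested that passed toward lower levels and 82.1% in either direction. The same 39 were lower in every BCT sample than in any DMSO sample, against 44.3% of all genes tested, the same 4 were higher, against 41.0%, and 43 in all did not overlap, against 85.3%. The median log2 fold change was -0.84 over the 47 genes and -0.038 over all genes tested. By arm it was -1.20 for glycolysis, with 12 of 18 called lower, -0.68 for the pentose phosphate pathway, with 2 of 6 called lower, and -0.74 for pyruvate entry and the TCA cycle, with 8 of 23 called lower. With every sample rescaled to the same FPKM sum, the median of all genes became 0.72 and those of the arms -0.43, 0.087 and 0.025, and 7 of the 47 genes were called lower and 5 higher. The genes that were called lower as deposited and under every alternative run were 7, namely HK2, PFKM and PGK1 of glycolysis and PC, IDH1, IDH2 and OGDH of the TCA arm. After rescaling to equal sums these 7 stood at -0.86 to -1.88, and the others of the 22 lost the call. In bulk RNA, fewer cells of a kind and less of a transcript per cell cannot be told apart.

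**Figure D1:**
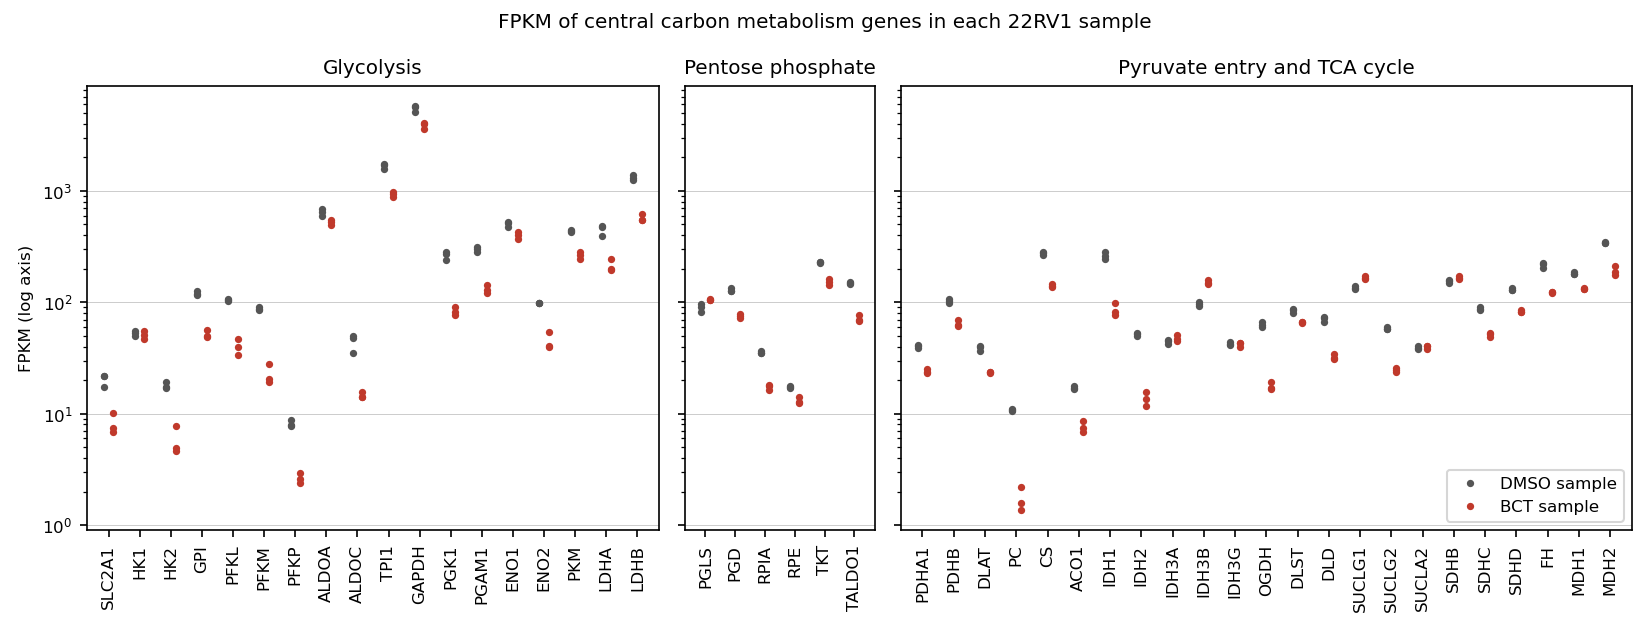
FPKM on a log axis for each of the 47 genes (horizontal axis, in pathway order) in the 3 DMSO samples (grey) and the 3 BCT samples (red). GAPDH stood highest in every sample, at 3556 to 5740 FPKM, and PC lowest with BCT, at 1.37 to 2.18 FPKM.

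**Figure D2:**
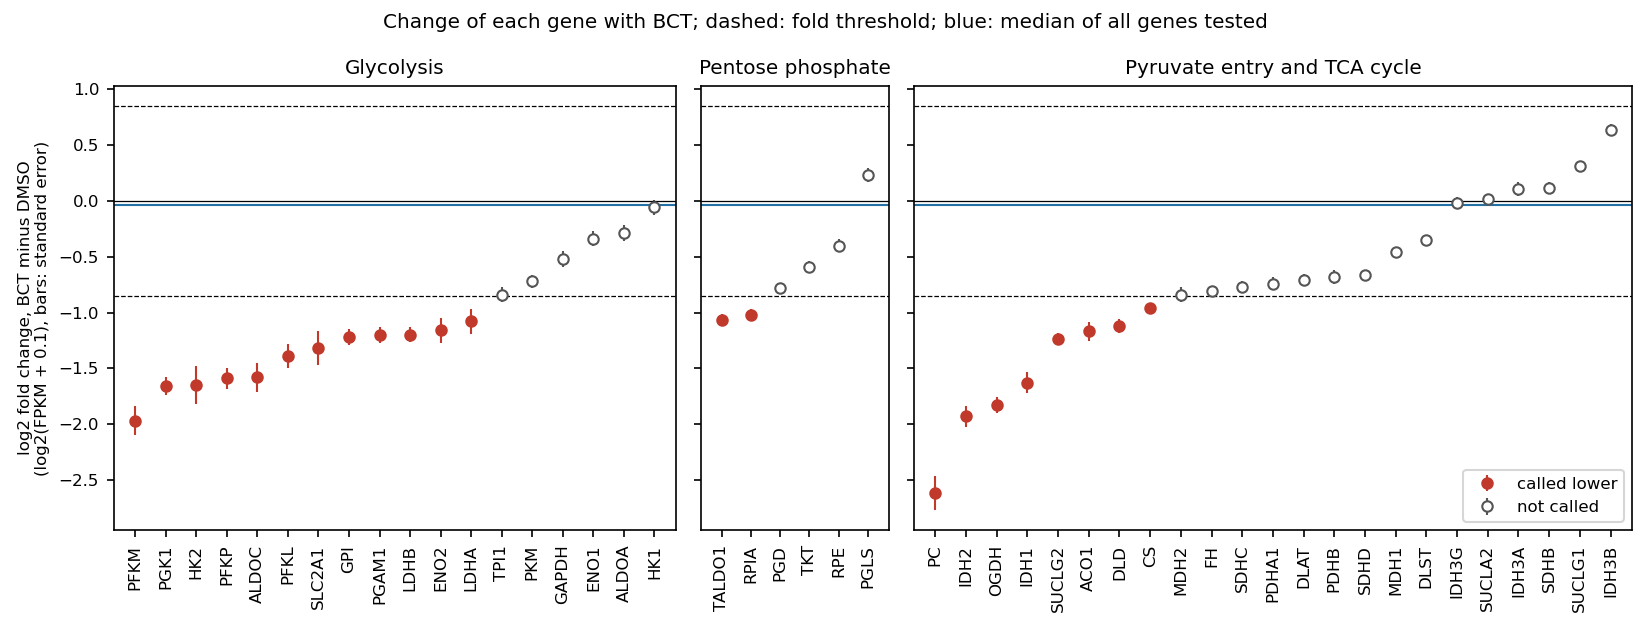
Log2 fold change of each gene, BCT minus DMSO, on log2(FPKM + 0.1), sorted within each arm, with bars for the standard error of the fit (n = 3 per group). Filled points are the 22 genes called lower, dashed lines mark the fold threshold of 0.85 and the blue line the median of all genes tested at -0.038, and rescaling to equal sums moves every point and the blue line up together, so that 26 of the 47 genes stay below 0.

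At the entry of glycolysis, glucose uptake and the first phosphorylation differed between isozymes. SLC2A1, the basal glucose transporter GLUT1 (chromosome 1, 43391046 to 43449029 of hg19), stood at 21.6, 17.5 and 22.0 FPKM in the DMSO samples and 10.2, 7.48 and 6.89 in the BCT samples. It was called lower, with no overlap between the groups (log2 fold change -1.32, standard error 0.15, adjusted p = 5e-05, limma with Benjamini-Hochberg adjustment). HK2, the inducible hexokinase of many tumors (chromosome 2, 75059782 to 75120481), stood at 17.0, 17.5 and 19.2 FPKM in the DMSO samples and 7.74, 4.60 and 4.97 in the BCT samples. HK1, the constitutive form (chromosome 10, 71029756 to 71161637), stood at 53.2, 55.4 and 49.9 FPKM in the DMSO samples and 55.2, 50.4 and 46.9 in the BCT samples. The groups did not overlap in HK2 (log2 fold change -1.65, standard error 0.17, adjusted p = 3.2e-05), whereas they overlapped in HK1 (log2 fold change -0.058, standard error 0.071, adjusted p = 0.46; limma). The summed FPKM of both hexokinases was 70.7 ± 1.98 with DMSO and 56.6 ± 5.71 with BCT (SD, n = 3 each), and HK2 made up 25.4% ± 2.13 of that sum with DMSO and 10.1% ± 2.01 with BCT. GPI, which isomerizes glucose phosphate to fructose phosphate, went from 116, 119 and 125 FPKM to 56.5, 48.4 and 49.3 FPKM, less than the lowest DMSO value in each BCT sample (log2 fold change -1.22, standard error 0.069, adjusted p = 1.4e-06).

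The phosphofructokinases, which catalyze the committed step of glycolysis, were all called lower. PFKM, the muscle form (chromosome 12, 48436681 to 48540187), stood at 90.4, 87.3 and 84.6 FPKM in the DMSO samples and 28.2, 19.2 and 20.3 in the BCT samples. PFKL, the liver form (chromosome 21, 45719917 to 45747264), stood at 104, 102 and 106 FPKM in the DMSO samples and 46.9, 39.5 and 33.7 in the BCT samples. PFKP, the platelet form and the least abundant here, stood at 8.81, 7.74 and 7.84 FPKM in the DMSO samples and 2.94, 2.57 and 2.39 in the BCT samples. PFKM had the largest fall of the glycolysis genes in the FPKM values as deposited (log2 fold change -1.97, standard error 0.13, adjusted p = 2.7e-06), followed among the isozymes by PFKP (-1.59) and PFKL (-1.39). Together they summed to 200 ± 2.77 FPKM with DMSO and 65.3 ± 11.4 FPKM with BCT (SD, n = 3 each), 32.7% of the DMSO level, against 80.0% for the hexokinase sum. PFKL made up 52.1% ± 1.23 of that sum with DMSO and 61.4% ± 2.68 with BCT, more in every BCT sample than in any DMSO sample. The listed stretch of PFKM also holds MIR6505 and SENP1, and reads without strand cannot be split between overlapping genes.

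Aldolase and triosephosphate isomerase close the hexose phase. ALDOC, the brain form of aldolase, stood at 47.8, 35.3 and 49.9 FPKM in the DMSO samples and 15.8, 14 and 14 in the BCT samples. ALDOA, the main form here, stood at 644, 589 and 692 FPKM in the DMSO samples and 548, 528 and 491 in the BCT samples. ALDOC was called lower (log2 fold change -1.58, standard error 0.13, adjusted p = 6.6e-06), and ALDOA passed the FDR but not the fold threshold (log2 fold change -0.29, standard error 0.072, adjusted p = 0.0048; 0.47 after rescaling to equal sums). TPI1, which interconverts the triose phosphates, stood at 1755, 1560 and 1689 FPKM in the DMSO samples and 985, 928 and 873 in the BCT samples. Its groups did not overlap, and at -0.84 it lay just under the fold threshold, being called without DMSO replicate 2 (-0.89), without BCT replicate 1 (-0.89) and after scaling to equal medians.

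In the triose phase, the most abundant transcripts had the smallest differences. GAPDH, the glyceraldehyde phosphate dehydrogenase often used as a reference gene (chromosome 12, 6643571 to 6647541), stood at 5740, 5135 and 5643 FPKM in the DMSO samples and 4030, 3971 and 3556 in the BCT samples. No BCT sample reached the lowest DMSO sample, but the difference stayed under the fold threshold (log2 fold change -0.52, standard error 0.073, adjusted p = 0.00021) and took the other sign after rescaling to equal sums (0.25) and under quantile normalization (0.046). PGK1, phosphoglycerate kinase, which makes ATP at the next step (chromosome X, 77359666 to 77382324), stood at 280, 237 and 271 FPKM in the DMSO samples and 89.8, 82.4 and 76.3 in the BCT samples. PGK1 was called lower by a wide margin over the replicate spread (log2 fold change -1.66, standard error 0.081, adjusted p = 9.2e-07). PGAM1, phosphoglycerate mutase, stood at 311, 283 and 302 FPKM in the DMSO samples and 143, 128 and 121 in the BCT samples, and it was also called lower (log2 fold change -1.20, standard error 0.071, adjusted p = 1.7e-06). PGAM2, another phosphoglycerate mutase gene outside the 47, stood at 92.0, 92.5 and 97.0 FPKM in the DMSO samples. With BCT it stood at 174, 176 and 168 FPKM, above PGAM1 in every BCT sample. It was called higher (log2 fold change 0.88, standard error 0.047, adjusted p = 1.2e-06, limma). GAPDH alone made up 47.3% ± 0.347 of the glycolysis FPKM sum with DMSO and 53.5% ± 0.975 with BCT. That sum was 11630 ± 611 FPKM with DMSO and 7205 ± 481 FPKM with BCT, or 6124 ± 287 and 3352 ± 243 FPKM without GAPDH (SD, n = 3 each).

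Enolase and pyruvate kinase form and use phosphoenolpyruvate. ENO2, the neuronal enolase, stood at 99.3, 98.6 and 98.5 FPKM in the DMSO samples and 54.0, 39.4 and 40.8 in the BCT samples. ENO1, the ubiquitous enolase, stood at 512, 475 and 526 FPKM in the DMSO samples and 428, 399 and 371 in the BCT samples. ENO2 was called lower (log2 fold change -1.16, standard error 0.11, adjusted p = 1.8e-05), and ENO1 was not (log2 fold change -0.34, standard error 0.067, adjusted p = 0.0015; 0.43 after rescaling to equal sums). PKM, the pyruvate kinase gene of tumor cells, stood at 440, 429 and 442 FPKM in the DMSO samples and 282, 267 and 246 in the BCT samples. It stayed under the fold threshold (log2 fold change -0.72, standard error 0.059, adjusted p = 7.6e-06; 0.044 after rescaling to equal sums). Within the pairs HK2 and HK1, ALDOC and ALDOA, and ENO2 and ENO1, the isozyme with the lower DMSO level was called lower as deposited. The more abundant isozyme of each pair was not called, while all of the phosphofructokinases were called lower. ENO3, an enolase outside these pairs and less abundant than ENO2 with DMSO, was called higher (log2 fold change 1.14). After rescaling to equal sums HK2 kept the call (-0.89), whereas ALDOC (-0.82) and ENO2 (-0.39) lost it. Of the phosphofructokinases, only PFKM kept it (-1.20).

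Both lactate dehydrogenase subunits were called lower, by similar amounts. LDHA, the subunit named for muscle (chromosome 11, 18415936 to 18429765), stood at 485, 389 and 470 FPKM in the DMSO samples and 242, 197 and 194 in the BCT samples. LDHB, the heart subunit and the more abundant one in these cells (chromosome 12, 21788275 to 21810789), stood at 1373, 1301 and 1255 FPKM in the DMSO samples and 621, 551 and 544 in the BCT samples. The changes were -1.08 for LDHA (standard error 0.11, adjusted p = 2.5e-05 from limma) and -1.20 for LDHB (standard error 0.067, adjusted p = 1.4e-06). LDHA made up 25.5% ± 2.19 of the summed level with DMSO and 26.9% ± 1.01 with BCT, a difference smaller than the spread between samples. Both lost the call under either rescaling to equal sums and under quantile normalization. LDHA also lost it in limma's test against the fold threshold (adjusted p = 0.14).

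Promoters from RefSeq (GRCh38.p14, 250 bases before to 50 after 1 start site per gene) were available for 45 of the 47 genes, all but OGDH and SDHC. They were searched on both strands for CACGTG, the E-box bound by MYC and related factors, and for ACGTG and GCGTG, core letters of the hypoxia response element, where each CACGTG also counts as ACGTG on both strands. ACGTG was present in 8 of 18 glycolysis promoters, 1 of 6 pentose phosphate promoters and 5 of 21 promoters of the TCA arm, against 27.3% of the promoters of all genes tested. CACGTG was present in 3, 0 and 1 of them, against 10.4%, and GCGTG in 9, 2 and 13, against 51.6%. The sequences below are the hexokinase pair, of which only HK2 was called lower, and 4 genes called lower that hold these letters. They are written 5′ to 3′ on the strand of the gene, with matches to the 3 motifs in capitals.
HK2: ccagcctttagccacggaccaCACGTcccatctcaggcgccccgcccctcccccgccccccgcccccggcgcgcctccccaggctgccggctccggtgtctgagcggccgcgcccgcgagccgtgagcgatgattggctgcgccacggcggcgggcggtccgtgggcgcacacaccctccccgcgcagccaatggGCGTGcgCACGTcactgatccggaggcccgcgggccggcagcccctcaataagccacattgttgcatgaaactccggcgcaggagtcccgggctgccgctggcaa
HK1: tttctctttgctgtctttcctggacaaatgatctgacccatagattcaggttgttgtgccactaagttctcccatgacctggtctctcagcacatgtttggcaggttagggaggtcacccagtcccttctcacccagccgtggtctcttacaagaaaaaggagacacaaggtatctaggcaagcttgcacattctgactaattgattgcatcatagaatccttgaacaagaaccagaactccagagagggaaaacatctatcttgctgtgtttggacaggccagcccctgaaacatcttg
LDHA: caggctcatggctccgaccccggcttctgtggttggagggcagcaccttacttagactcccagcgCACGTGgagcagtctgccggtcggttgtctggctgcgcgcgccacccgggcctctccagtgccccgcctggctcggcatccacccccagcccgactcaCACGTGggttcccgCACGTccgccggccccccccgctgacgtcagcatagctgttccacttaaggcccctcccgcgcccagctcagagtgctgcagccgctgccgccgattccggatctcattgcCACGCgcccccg
ALDOC: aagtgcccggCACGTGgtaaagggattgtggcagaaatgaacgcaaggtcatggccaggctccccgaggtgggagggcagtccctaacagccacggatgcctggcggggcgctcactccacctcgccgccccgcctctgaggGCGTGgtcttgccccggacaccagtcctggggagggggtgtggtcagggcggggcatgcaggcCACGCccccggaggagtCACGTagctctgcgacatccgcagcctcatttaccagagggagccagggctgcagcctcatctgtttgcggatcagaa
PGK1: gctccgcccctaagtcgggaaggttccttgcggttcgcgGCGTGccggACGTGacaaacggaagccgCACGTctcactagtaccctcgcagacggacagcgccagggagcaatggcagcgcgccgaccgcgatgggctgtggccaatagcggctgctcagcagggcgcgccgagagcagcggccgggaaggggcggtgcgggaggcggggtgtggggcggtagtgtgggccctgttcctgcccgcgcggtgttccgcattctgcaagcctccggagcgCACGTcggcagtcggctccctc
PC: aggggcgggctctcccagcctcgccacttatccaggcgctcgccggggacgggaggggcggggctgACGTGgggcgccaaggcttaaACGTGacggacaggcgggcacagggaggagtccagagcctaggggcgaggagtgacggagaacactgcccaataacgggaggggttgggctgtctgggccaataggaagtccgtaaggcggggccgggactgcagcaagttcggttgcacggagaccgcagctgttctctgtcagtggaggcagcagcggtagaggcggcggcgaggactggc
The windows lie at chr2:74833877-74834176, plus strand, for HK2, at chr10:69269750-69270049, plus strand, for HK1, at chr11:18394313-18394612, plus strand, for LDHA, at chr17:28576846-28577145, minus strand, for ALDOC, at chrX:78103998-78104297, plus strand, for PGK1, and at chr11:66958334-66958633, minus strand, for PC. The window of HK2 held 2 ACGTG and 1 GCGTG and that of HK1 none of these letters. LDHA held 2 CACGTG, which account for 4 of its 5 ACGTG matches, ALDOC held 1 CACGTG, and PGK1 and PC held 3 and 2 ACGTG without a CACGTG. GAPDH, which was not called, also held 1 CACGTG, and PFKM, with the largest fall of the glycolysis genes, held none of the 3 motifs. A match is a description of the letters and not a measured binding site, and the start used in 22RV1 cells may differ from the one in the table.

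Over all genes tested, 41.0% were higher and 44.3% lower in every BCT sample than in any DMSO sample, 85.3% in all. In the pentose phosphate pathway, 1 gene was higher and 5 were lower in this way. Of its oxidative branch, PGLS, the lactonase, stood at 91.3, 81.7 and 95.5 FPKM in the DMSO samples and 104, 106 and 105 in the BCT samples. It was the only gene of this arm with higher values in every BCT sample, below the fold threshold (log2 fold change 0.23, standard error 0.063, adjusted p = 0.0084; 1.0 and called after rescaling to equal sums). PGD, the phosphogluconate dehydrogenase that yields NADPH (chromosome 1, 10459049 to 10480568), stood at 133, 126 and 127 FPKM in the DMSO samples and 78.0, 72.8 and 74.9 in the BCT samples. Its groups were apart but the difference did not reach the fold threshold (log2 fold change -0.78, standard error 0.049, adjusted p = 2.2e-06). In the non-oxidative branch, which exchanges carbons between sugars, TALDO1, transaldolase, stood at 152, 147 and 150 FPKM in the DMSO samples and 76.2, 69.7 and 68.5 in the BCT samples. RPIA, the ribose phosphate isomerase, stood at 36.2, 35.1 and 34.7 FPKM in the DMSO samples and 18.0, 17.9 and 16.4 in the BCT samples. These genes were called lower (-1.07 and -1.02, with standard errors of 0.054 and 0.054) and lost the call under either rescaling to equal sums. TALDO1 also lost it under quantile normalization (-0.84). TKT, transketolase, stood at 230, 225 and 231 FPKM in the DMSO samples and 151, 163 and 144 in the BCT samples. The epimerase RPE stood at 17.6, 17.1 and 17.4 FPKM in the DMSO samples and 14.1, 12.6 and 12.8 in the BCT samples. TKT (-0.59) and RPE (-0.40) were under the fold threshold and took values of 0.18 and 0.36 after rescaling to equal sums. The non-oxidative genes summed to 431 ± 6.25 FPKM with DMSO and 255 ± 11.3 FPKM with BCT (SD, n = 3 each), or 59.0% of the DMSO level.

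Of the pyruvate entry genes, which act on pyruvate in the mitochondrion, PC had the largest fall of all 47 genes as deposited. PC encodes pyruvate carboxylase, which refills the TCA cycle with oxaloacetate (chromosome 11, 66615997 to 66725847). It stood at 10.9, 10.6 and 11 FPKM in the DMSO samples and 2.18, 1.59 and 1.37 in the BCT samples, so that the BCT mean was 15.8% of the DMSO mean (log2 fold change -2.62, standard error 0.15, adjusted p = 1.4e-06, limma). After rescaling to equal sums it was at -1.88. The listed stretch of PC also holds LRFN4, and that of SLC2A1 the antisense gene SLC2A1-AS1. By contrast, the subunits PDHA1, PDHB and DLAT of pyruvate dehydrogenase, which makes acetyl-CoA, were under the fold threshold. Its shared subunit DLD was called lower and is described below. PDHA1, PDHB and DLAT had log2 fold changes of -0.74, -0.68 and -0.71, with standard errors of 0.056, 0.064 and 0.055, and 0.025 to 0.085 after rescaling to equal sums. Their BCT means were 59.7%, 62.3% and 61.0% of the DMSO means.

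The isocitrate dehydrogenases were split by the cofactor they use. CS, citrate synthase, stood at 275, 281 and 268 FPKM in the DMSO samples and 147, 141 and 137 in the BCT samples and was called lower (log2 fold change -0.96, standard error 0.049, adjusted p = 1e-06). ACO1, the cytosolic aconitase that also acts as an iron regulatory protein, stood at 17.9, 17.1 and 16.7 FPKM in the DMSO samples and 8.56, 7.37 and 6.87 in the BCT samples, also called lower (log2 fold change -1.17, standard error 0.083, adjusted p = 3.7e-06). Both lost the call under either rescaling to equal sums. CS also lost it under quantile normalization (-0.64) and in limma's test against the fold threshold (adjusted p = 0.13). IDH1, the cytosolic NADP-linked enzyme (chromosome 2, 209100951 to 209119867), stood at 284, 262 and 245 FPKM in the DMSO samples and 98.1, 81.4 and 77.5 in the BCT samples. IDH2, its mitochondrial counterpart (chromosome 15, 90627211 to 90645786), stood at 53.1, 49.5 and 52.4 FPKM in the DMSO samples and 15.5, 13.5 and 11.8 in the BCT samples. Both fell by more than the spread between samples, IDH2 (log2 fold change -1.93, standard error 0.093, adjusted p = 9.1e-07) more than IDH1 (log2 fold change -1.63, standard error 0.094, adjusted p = 1.6e-06). The subunits of the NAD-linked enzyme IDH3, the TCA cycle form, were not called lower. IDH3A, a catalytic subunit, stood at 44.7, 45.6 and 42.2 FPKM in the DMSO samples and 50.8, 44.9 and 47.2 in the BCT samples. IDH3B (chromosome 20, 2639041 to 2644865) stood at 99.6, 96.2 and 93.2 FPKM in the DMSO samples and 146, 157 and 149 in the BCT samples. IDH3G stood at 42.0, 41.6 and 44.2 FPKM in the DMSO samples and 43.5, 43.4 and 39.4 in the BCT samples. The groups were apart in IDH3B, higher with BCT (log2 fold change 0.64, standard error 0.050, adjusted p = 6.1e-06, under the fold threshold as deposited and called higher under both rescalings to equal sums and quantile normalization), and overlapped in IDH3A and IDH3G, with adjusted p of 0.14 and 0.78 from limma. At equal sums IDH3A was also called higher, at 0.87, and IDH3G was at 0.75. IDH1 and IDH2 summed to 315 ± 19.8 FPKM with DMSO and 99.3 ± 12.7 FPKM with BCT, whereas the IDH3 subunits summed to 183 ± 3.37 and 240 ± 4.88 FPKM (SD, n = 3 each). The IDH3 sum, which adds up the subunits of a single enzyme, was below the NADP-linked sum in every DMSO sample and above it in every BCT sample. IDH3B alone also crossed that sum, whereas IDH3A and IDH3G each stayed below it in every sample.

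Subunits of 1 complex also diverged at the alpha-ketoglutarate dehydrogenase step. OGDH, its first enzyme (chromosome 7, 44646121 to 44748669), stood at 62.3, 66.6 and 60.1 FPKM in the DMSO samples and 19.4, 16.6 and 16.9 in the BCT samples. DLD, the dihydrolipoamide dehydrogenase shared with pyruvate dehydrogenase, stood at 73.1, 72.4 and 66.4 FPKM in the DMSO samples and 34.6, 31.1 and 31.5 in the BCT samples. DLST, the succinyltransferase core, stood at 86.3, 85.1 and 80.1 FPKM in the DMSO samples and 66.1, 66.7 and 64.6 in the BCT samples. OGDH (log2 fold change -1.83, standard error 0.072, adjusted p = 4.4e-07) and DLD (log2 fold change -1.12, standard error 0.062, adjusted p = 1.4e-06) were called lower, while DLST was not (log2 fold change -0.35, standard error 0.049, adjusted p = 0.00019). OGDH kept its call after rescaling to equal sums, at -1.07, where DLD was at -0.35 and DLST at 0.42.

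Succinyl-CoA synthetase pairs a common subunit, SUCLG1, with either a GTP-forming partner, SUCLG2, or an ATP-forming partner, SUCLA2. SUCLG2 (chromosome 3, 67410884 to 67705038) stood at 59.8, 57.6 and 57.6 FPKM in the DMSO samples and 25.8, 24.9 and 23.5 in the BCT samples. SUCLA2 (chromosome 13, 48516791 to 48575462) stood at 40.6, 39.1 and 38.1 FPKM in the DMSO samples and 38.4, 40.1 and 40.7 in the BCT samples. SUCLG1 stood at 141, 133 and 131 FPKM in the DMSO samples and 163, 173 and 164 in the BCT samples. SUCLG2 was called lower (log2 fold change -1.24, standard error 0.053, adjusted p = 6.3e-07), SUCLA2 overlapped between the groups (log2 fold change 0.017, standard error 0.050, adjusted p = 0.76), and SUCLG1 was higher in every BCT sample but under the fold threshold (log2 fold change 0.31, standard error 0.051, adjusted p = 0.00056). With samples rescaled to equal sums SUCLG1 was called higher, at 1.07, SUCLG2 lost its call, at -0.47, and SUCLA2 was at 0.78. SUCLG2 exceeded SUCLA2 in every DMSO sample and was below it in every BCT sample.

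None of the 6 genes from succinate to oxaloacetate was called in the values as deposited. SDHC and SDHD, which anchor succinate dehydrogenase in the membrane, stood at 85.0 to 90.2 and 130 to 133 FPKM with DMSO and at 49.2 to 52.9 and 80.9 to 85.3 FPKM with BCT (-0.77 and -0.66). SDHB, the iron-sulfur subunit of the same complex, stood at 157, 155 and 149 FPKM in the DMSO samples and 171, 166 and 163 in the BCT samples, a small difference toward higher levels (log2 fold change 0.12, standard error 0.047, adjusted p = 0.048). FH, fumarase, stood between 204 and 223 FPKM with DMSO and between 121 and 124 FPKM with BCT (-0.81). MDH2, the mitochondrial malate dehydrogenase, stood at 340, 344 and 342 FPKM in the DMSO samples and 211, 186 and 177 in the BCT samples, and MDH1, the cytosolic form, stood at 188, 178 and 179 FPKM in the DMSO samples and 133, 132 and 132 in the BCT samples. MDH2 at -0.84 lay just under the fold threshold and was called without BCT replicate 1 (-0.91) and after scaling to equal medians, while MDH1 was at -0.46. After rescaling to equal sums SDHB was called higher, at 0.88, while MDH1 was at 0.31, SDHC at 0.00068 and SDHD at 0.11.

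Ratios of FPKM within a sample do not move with a factor that scales the whole sample, and 12 pairs of isozymes, subunits or neighboring steps were compared in this way. The groups did not overlap in 11 of them, each with an exact two-sided permutation p of 0.1, the smallest that 3 samples against 3 can give, and 0.109 after Benjamini-Hochberg adjustment over the 12 pairs. Of all single genes tested, 85.3% did not overlap, and no share was computed for ratios of other gene pairs. The count of pairs apart is therefore not particular to these pairs. The ratio of HK2 to HK1 was 0.319, 0.317 and 0.385 with DMSO and 0.140, 0.0913 and 0.106 with BCT, a difference of -1.60 on the log2 scale. The ratio of ALDOC to ALDOA went from 0.0743, 0.0600 and 0.0721 to 0.0287, 0.0265 and 0.0285 (-1.29). The ratio of SUCLG2 to SUCLA2 went from 1.47, 1.47 and 1.51 to 0.672, 0.621 and 0.577 (-1.25). These pairs and that of ENO2 to ENO1 (-0.82) showed the widest gaps between the groups. Smaller differences were found for PFKM to PFKL (-0.58), IDH3A to IDH3B (-0.54), TALDO1 to TKT (-0.48), MDH1 to MDH2 (0.39) and IDH1 to IDH2 (0.30). For PGD to TKT the difference was -0.19, and for PFKP to PFKL it was -0.20 but turned to 0.039 with a pseudocount of 1. The exception was LDHA to LDHB, whose ratio was 0.353, 0.299 and 0.375 with DMSO and 0.390, 0.357 and 0.358 with BCT, with overlapping groups (difference 0.11 with a pooled SD of 0.13, exact permutation p = 0.4).

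**Figure D3:**
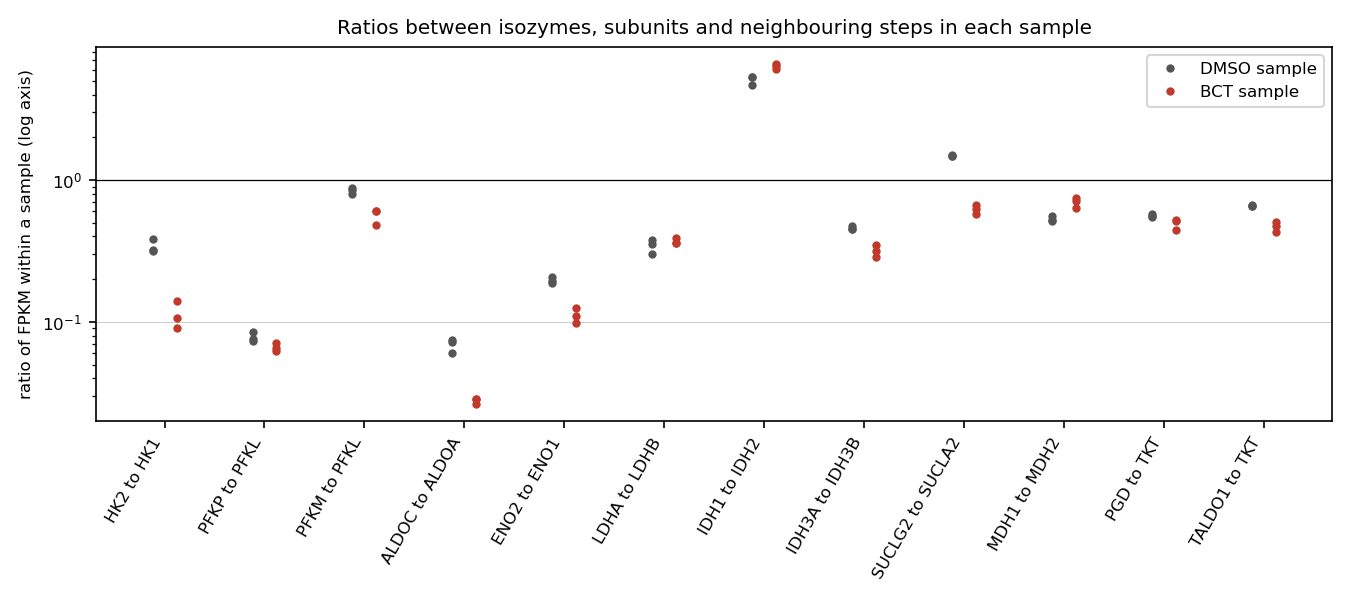
Ratio of FPKM between the members of each of the 12 pairs, on a log axis, within each DMSO sample (grey) and each BCT sample (red), with a line at 1. The groups are apart in every pair except LDHA to LDHB, and SUCLG2 to SUCLA2 crosses 1, from 1.47 to 1.51 with DMSO to 0.577 to 0.672 with BCT.

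Which genes counted as lower depended on the scaling. In the values as deposited, 18 of 18 glycolysis genes, 5 of 6 pentose phosphate genes and 17 of 23 genes of the TCA arm lay below the median of all genes tested. Scaling by 1 factor per sample moves that median along with the genes, so it does not test these counts, and under quantile normalization they were 14, 5 and 17. After rescaling to equal sums, 13, 3 and 10 genes had a log2 fold change below 0, and without MIR6087 in the sums 15, 5 and 16.

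**Figure D4:**
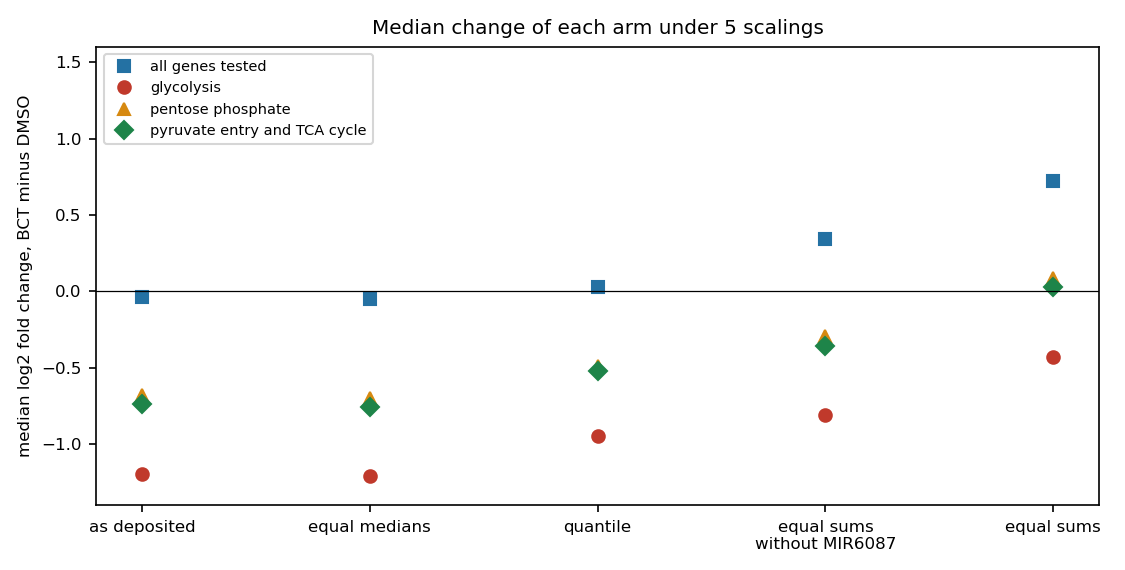
Median log2 fold change (BCT minus DMSO) of all genes tested and of each arm under 5 scalings of the samples. The median of glycolysis ranged from -1.21 to -0.43, and the medians of the other arms reached 0.087 and 0.025 after rescaling to equal sums. Scaling by 1 factor per sample moves all medians together, so only quantile normalization could change their order. There the median was -0.95 for glycolysis, -0.49 for pentose phosphate, -0.52 for the TCA arm and 0.029 for all genes.

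Neighboring genes of the same pathways, a list of 72 transporters, further isozymes, regulators and shuttle enzymes, were examined beside them. Of the 59 that passed the filter, 20 were called lower (33.9%, against 17.8% of all genes tested) and 6 higher (10.2%, against 13.9%), with a median log2 fold change of -0.59. With equal sums, 6 were called lower and 10 higher, with a median of 0.17. Among the largest falls were those of the lactate exporter SLC16A3, from 14, 9.64 and 15.8 FPKM to 3.30, 3.40 and 3.12 FPKM (-1.94), and of LDHD, the D-lactate dehydrogenase, from 5.21, 4.94 and 5.55 FPKM to 1.34, 1.02 and 0.838 FPKM (-2.21). PRPS2, which makes the ribose donor for nucleotides (-1.88), PDK3, an inhibitory kinase of pyruvate dehydrogenase (-1.75), and ACLY, which cleaves citrate to acetyl-CoA in the cytosol (-1.67), complete the 5 largest falls. These 5 kept their call after rescaling to equal sums, at -0.90 to -1.49. TKTL1, a transketolase-like gene, stood at 0.0520, 0.0230 and 0.0590 FPKM in the DMSO samples and 2.04, 4.38 and 3.47 in the BCT samples, so that it passed the filter through the BCT samples only, and since its DMSO values lie below the pseudocount, its fold change is not given. TIGAR, a p53 target whose product lowers fructose bisphosphate, rose from 1.11, 1.35 and 1.02 FPKM to 4.27, 5.02 and 5.07 FPKM (1.96). PDK4, another inhibitory kinase of pyruvate dehydrogenase, rose from 16.4, 16.0 and 12.5 FPKM to 47.6, 38.2 and 40.7 FPKM (1.49), opposite to PDK3. ENO3, the muscle enolase, rose from 2.58, 2.98 and 4.05 FPKM to 5.96, 7.58 and 7.82 FPKM (1.14). RBKS, ribokinase, rose from 5.60, 5.85 and 4.89 FPKM to 11.1, 12.4 and 12 FPKM (1.11), at a stretch that overlaps BRE. ENO3, unlike the other enolases, was higher in every BCT sample, at a level far below ENO1.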

How the data were processed

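RNA of 6 samples of 22RV1 cells was sequenced by the authors from unstranded libraries (TruSeq RNA v2). Reads were trimmed (Trimmomatic 0.38), mapped to hg19 (HISAT2) and assembled (StringTie) by the authors, who deposited gene FPKM for each sample. The submitters' processing notes also name HTSeq, without a role. The gene annotation is not given in the sources used here. Groups and replicate numbers come from the sample labels.

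FPKM values were joined by gene symbol, and the 12729 genes whose mean reached 1 FPKM were tested on log2(FPKM + 0.1), a scale that understates changes of low genes, using limma 3.58.1 under R 4.3.3 with a trended eBayes prior and Benjamini-Hochberg adjustment over all of them. The fold threshold of 0.85 follows the study. No count test was run, since FPKM hold no counts, and depth could be had only relative to another sample. Ratios were tested by exact permutation. Positions are those of the deposited files with 1 added to the start. The members and lists were chosen with earlier results of these data known. All members called and both members of each ratio pair are given by sample. Of the neighboring genes, the 5 largest called changes in each direction and PGAM2 are given. Alternatives covered pseudocount, filter, scaling, FDR, variance model, test, replicate block and each sample left out.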

Additional observations from a re-analysis of the deposited data

How the results depend on the processing

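Of 893 fold changes recomputed for the 47 genes under 19 alternatives, 820 stayed on the same side of the call with the same sign, 33 lost the call, 12 gained it and 28 took the other sign. The cause of these shifts was not tested, except that a common factor per sample moves all genes alike. With each sample rescaled to equal FPKM sums, 668 of all genes were called lower and 5614 higher, 7 of the 47 genes lower and 5 higher, 3 glycolysis genes lower, 0 pentose phosphate genes lower and 1 higher, and 4 genes of pyruvate entry and the TCA cycle lower and 4 higher. With equal sums without MIR6087, the counts were 1208 and 3370 of all genes, 11 and 1 of the 47, 7 glycolysis genes lower, 0 pentose phosphate genes lower, and 4 and 1 of the TCA arm. Quantile normalization gave 1 of the 47 genes higher, in the TCA arm, and 1 pentose phosphate gene lower. Over all genes, 2657 were called higher with no filter and 1150 with the filter raised to 5 FPKM, and a test against the fold threshold (limma's treat) gave 1392 lower and 1033 higher and 19 of the 47 genes lower.

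After rescaling to equal sums the sign changed for HK1 (0.71), ALDOA (0.47), GAPDH (0.25), ENO1 (0.43), PKM (0.044), RPE (0.36), TKT (0.18), PDHA1 (0.025), PDHB (0.085), DLAT (0.057), IDH3G (0.75), DLST (0.42), SDHC (0.00068), SDHD (0.11) and MDH1 (0.31). Without MIR6087 in the sums it changed for HK1 (0.33), ALDOA (0.092), ENO1 (0.048), IDH3G (0.37) and DLST (0.038), and under quantile normalization for HK1 (0.054), ALDOA (0.29), GAPDH (0.046), ENO1 (0.058) and IDH3G (0.051). Without DMSO replicate 3, IDH3G was at 0.0090 and SUCLA2 at -0.0047, and without BCT replicate 3, IDH3G was at 0.029, with ranges over the samples left out of -0.042 to 0.029 for IDH3G and -0.0047 to 0.042 for SUCLA2.

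Leaving out 1 sample at a time gave 22 to 24 of the 47 genes called lower and 0 called higher. With the replicate number as a block, 22 of the 47 genes were called lower and 0 higher, with 2266 lower and 1767 higher over all genes, and no call among the 47 changed. Same-numbered samples had correlations of 0.116, 0.0328 and 0.0342 in their deviations from the group means, and 4 of 6 samples correlated best with their own number, a hint from the data and not the design. Of the ratios, PFKP to PFKL was at 0.039 with a pseudocount of 1, and quantile normalization gave -1.84 for ALDOC to ALDOA, -1.10 for ENO2 to ENO1, -0.13 for LDHA to LDHB, 0.48 for IDH1 to IDH2, -0.71 for IDH3A to IDH3B, -0.32 for PGD to TKT and -0.58 for TALDO1 to TKT. The FPKM values do not show which scaling fits these samples, and the read depth behind each gene is unknown.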

Other observations

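The samples of a group differed among themselves in an order that many of the 47 genes shared. BCT replicate 1 was the highest of the BCT samples in 22 of the 22 genes called lower and in 18 of 18 glycolysis genes, against 45.3% of all genes tested, so that its values lay nearest to those of the DMSO samples. Without it, 24 of the 47 genes were called lower. Among the DMSO samples, replicate 2 was the lowest in 12 of 18 glycolysis genes and in 5 of 23 genes of pyruvate entry and the TCA cycle, while replicate 3 was the lowest in 4 of 18 and 17 of 23. Over all genes tested the shares were 36.7% for replicate 2 and 34.7% for replicate 3. SLC2A1 stood at 17.5 FPKM in DMSO replicate 2 against 21.6 and 22.0 in the others, ALDOC at 35.3 against 47.8 and 49.9, and LDHA at 389 against 485 and 470. The genes of an arm share their libraries and are not independent, and these orders were noticed in the data and not tested.

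Copies elsewhere in the genome bear on the most abundant genes. GENCODE (the release lifted to GRCh37) holds 136 processed pseudogenes named after 23 of the 47 genes, of which 105 belong to 10 glycolysis genes, 65 of them to GAPDH, 13 to PGAM1 and 6 to LDHA. Only 4 of the 136 are listed in the deposited files. How the reads of such copies were assigned is not known here, and levels of these genes are uncertain to that extent. In 11 of the 47 genes, another listed gene lies over the same stretch, namely SLC2A1, PFKM, TPI1, ENO1, RPE, PDHA1, DLAT, PC, IDH3G, SDHC and MDH1, and libraries of this kit do not mark the strand.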
